A study of Mus musculus with 27 samples.

Results

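The genes described here are the nuclear genes for oxidative phosphorylation in RAW264.7 cells, a mouse macrophage line. Members were chosen by symbol: names starting with Ndufa, Ndufb, Ndufc, Ndufs, Ndufv, Uqcr, Cox4 to Cox8 or Atp5, and Cyc1, with at least 1 protein-coding transcript. Of 55483 genes in the counts table, 109 matched by name, 16 of them had no coding transcript, and 93 were kept. They comprise 37 complex I genes, 8 complex I assembly factors (Ndufaf1 to Ndufaf8), 9 complex III genes, 21 complex IV genes and 18 genes of ATP synthase, or complex V. Atp5o is listed under 2 identifiers, and the second had 0 counts in all 27 libraries.

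Cells were kept for 6 h in DMSO, in LPS (bacterial lipopolysaccharide, which activates macrophages) at 1 µg/ml with DMSO, or in LPS with the tanshinone mimic TM7nox at 10 µM. The LPS groups are called LPS and LPS+TM7nox here. Each treatment has 4 libraries of total RNA, 4 of RNA recovered with an antibody to HuR (ribonucleoprotein immunoprecipitation, RIP) and 1 of RNA recovered with control IgG, always replicate 3. All samples are of 1 established line with no labelled genetic change. The labels do not say whether replicates are separate cultures, so the p-values measure the spread between these samples, which may be technical.

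Oxidative phosphorylation is the making of ATP by the mitochondrial inner membrane. Complexes I, III and IV pass electrons from NADH to oxygen and pump protons, and ATP synthase uses the proton gradient. Most subunits are encoded in the nucleus and a few by mitochondrial DNA. Macrophages activated by LPS are known to lean on glycolysis and to alter their use of the respiratory chain. HuR, the product of Elavl1, binds mRNA at stretches rich in U or in A and U, and tanshinone mimics were designed to interfere with that binding.

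The RNA libraries held 2.73 to 28.3 M counts, and RNA DMSO replicate 1 was the shallowest. The RIP libraries held 19.8 to 41.4 M counts and the IgG libraries 8.87 to 24.5 M. In the 12 RNA libraries, 8 macrophage markers summed to 3058 to 5985 CPM (CPM, counts scaled to a common library size by TMM), and no list of fibroblast, epithelial, T cell or B cell markers summed to more than 0.390 CPM. Counts were available in all 27 libraries for 84 members. After a filter on low counts, 86 members were tested in RNA, 85 in RIP, 87 where RNA and RIP were fitted together and 86 against IgG. The threshold for calling a gene was an adjusted p (FDR) under 0.05 in edgeR's quasi-likelihood test with adjustment over all genes tested.

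In total RNA from DMSO, 73 members stood at 10 CPM or more. Levels between genes are compared per kilobase of a representative annotated transcript, which may be longer than the form the cells use. By this measure Cox6c, a complex IV subunit, was the highest member at 334 CPM per kb ± 136 (SD, n = 4). Of its 31-base words, 37.4% also lie elsewhere in the genome, so its reads may be shared with other loci. Next came the F1 head of ATP synthase, where ATP is made: Atp5b, the catalytic beta subunit, at 297 CPM per kb ± 28.1 and Atp5a1, the alpha subunit, at 194 CPM per kb ± 52.0 (SD, n = 4 each). Cox6c and Atp5b overlapped within 1 SD, and Atp5b and Atp5a1 did not. The complex IV genes Cox8a, Cox4i1, Cox5b and Cox7b followed at 181, 138, 131 and 116 CPM per kb, and neighbours in this order, from Atp5a1 on, overlapped within 1 SD.

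Isoforms known from muscle, testis or lung, and the hypoxia-induced Ndufa4l2, had few or no counts. Over the 12 RNA libraries, with 254 M counts together, Cox4i2 had 71 counts, Ndufa4l2 20, Cox8b 2, and Cox8c, Cox7b2 and Cox6b2 had 0. A count of 0 over these libraries allows up to 0.00943 CPM on the TMM scale, for counting error only. The muscle isoforms Cox6a2 and Cox7a1 stood at 0.681 and 1.42 CPM in RNA from DMSO. Ndufb2, an accessory complex I subunit, had 149 counts and is a poorly measured member. The genes with mean levels under 1 CPM in each RNA group numbered 9.

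Members together took 0.794% ± 0.0513 of all counts in RNA from DMSO, 0.685% ± 0.0322 in LPS and 0.616% ± 0.0281 with TM7nox added (SD, n = 4 per group). In anti-HuR RIP they took 0.125% ± 0.0109, 0.125% ± 0.0317 and 0.0897% ± 0.0257 (SD, n = 4 each). In the single IgG libraries they took 0.800%, 0.653% and 0.605%. Their share in IgG was thus near that in total RNA, and their share in RIP was several times lower. Mitochondrially encoded genes took 19.2% ± 3.74, 15.4% ± 2.43 and 17.4% ± 1.60 of the RNA counts and 1.29% ± 0.288, 0.901% ± 0.638 and 1.07% ± 0.462 of the RIP counts (SD, n = 4 each). In RIP from LPS replicate 4 stood at 1.86% and the others at 0.559% to 0.630%.

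**Figure D1:**
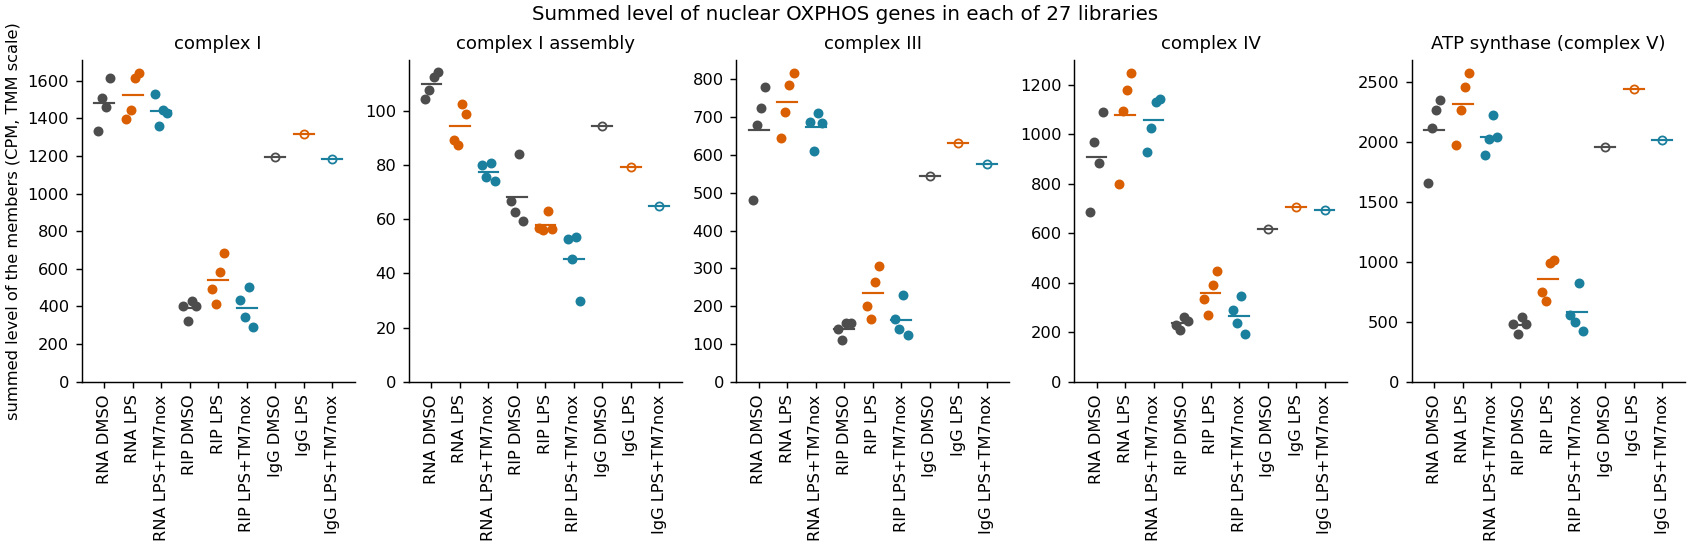
Summed level of the members of each complex (y axis, CPM on the TMM scale) in each of 27 libraries (x axis, by assay and treatment); points are libraries, lines are group means, and open points are IgG. Within a treatment the RIP points lie below the RNA points in each panel, and the RNA points of the assembly factors step down from DMSO (104 to 115 CPM) to LPS (87.3 to 103 CPM) to LPS+TM7nox (74.1 to 80.7 CPM).

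The response of total RNA to LPS was compared first. Of 86 members tested, 1 rose and 3 fell, against 42% of all 12369 genes called (20.2% higher and 21.7% lower). The members' median log2 fold change was 0.05, and that of all genes was −0.04. By complex the medians were 0.00 for complex I, −0.16 for its assembly factors, 0.07 for complex III, 0.16 for complex IV and 0.13 for ATP synthase. With scaling by library totals alone the members' median was −0.23 and that of all genes −0.32, with 0 members higher and 15 lower, against 13.2% and 34.4% of all genes. Same-numbered libraries deviated together, and with the replicate number as a block 12 members were higher and 6 lower, against 25.2% and 27.2% of all genes. Among the 12 were Ndufa1 (0.56), Ndufs4 (0.47), Uqcrb (0.46) and Cox5b (0.41). Without RNA DMSO replicate 1 there were 3 higher and 5 lower, and without RNA LPS replicate 1, RNA DMSO replicate 2 or RNA DMSO replicate 4 there were 3, 3 and 2 higher.

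Ndufs4 (chr13:114421982-114524794 on GRCm39, minus strand), an accessory subunit of complex I whose loss causes mitochondrial disease, was the member that rose. It stood at 36.4, 57.1, 55.1 and 61.4 CPM in DMSO, at 68.4, 76.5, 75.9 and 81.1 CPM in LPS and at 65.3, 70.8, 78.9 and 71.6 CPM in LPS+TM7nox. Every LPS library was above every DMSO library, and both LPS treatments overlapped. Its log2 fold change by LPS was 0.46 (SE 0.128, FDR 0.00977). On library totals alone it was 0.18 with an FDR of 0.215.

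The core subunit Ndufs7 (chr10:80084941-80095049, plus strand), which carries the last iron-sulfur cluster before ubiquinone, went the other way. Its levels were 58.9, 68.0, 81.2 and 67.8 CPM in DMSO, 53.6, 48.7, 48.0 and 51.6 CPM in LPS and 51.9, 49.0, 46.2 and 36.8 CPM in LPS+TM7nox. All 8 libraries with LPS were below all 4 without it. The fall by LPS was −0.51 on the log2 scale (SE 0.127, FDR 0.00523). An exon of Ndufs7 overlaps Gamt on the other strand. The core subunits Ndufs1, Ndufs3, Ndufs8, Ndufv1 and Ndufv2 were not called, with log2 fold changes from −0.25 (Ndufs1) to 0.31 (Ndufs3).

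The remaining decreases were in assembly factors, which build complex I and are not part of the finished enzyme. Ndufaf4 (chr4:24898079-24905001, plus strand) stood at 31.03, 44.2, 40.5 and 40.2 CPM in DMSO, at 21.5, 28.1, 28.4 and 28.03 CPM in LPS and at 21.1, 23.96, 21.95 and 19.6 CPM in LPS+TM7nox. The DMSO libraries lay above all others, and the LPS and LPS+TM7nox libraries overlapped. Its log2 fold change by LPS was −0.62 (SE 0.127, FDR 0.00128). Ndufaf7 (chr17:79244538-79256938, plus strand), a methyltransferase, stood at 5.78, 5.40, 6.09 and 7.39 CPM in DMSO and at 5.08, 3.94, 3.67 and 4.62 CPM in LPS. It fell by 0.57 on the log2 scale (SE 0.186, FDR 0.0244), and its exons overlap Prkd3. That call was lost without RNA DMSO replicate 4 (FDR 0.0969) or without RNA LPS replicate 2, 3 or 4 (FDR 0.0680, 0.0841 and 0.0517).

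The 8 assembly factors summed to 104, 108, 113 and 115 CPM in RNA from DMSO, to 89.1, 87.3, 103 and 98.7 CPM in LPS and to 80.0, 75.4, 80.7 and 74.1 CPM in LPS+TM7nox. No library of 1 treatment overlapped another treatment, and the order was the same as a share of counts, at 0.0167%, 0.0113% and 0.00905% on average. Without Ndufaf4 the sums were 73.2, 63.6, 72.1 and 74.3 CPM in DMSO, 67.6, 59.1, 74.2 and 70.7 CPM in LPS and 58.9, 51.5, 58.8 and 54.5 CPM in LPS+TM7nox. DMSO and LPS then overlapped, and the lowest LPS library stood just above the highest with TM7nox. The sums of the other complexes in RNA overlapped between treatments on the TMM scale. As shares of counts, the sum of all members also separated the 3 treatments. On library totals alone the typical gene fell too. The median log2 fold change by LPS was −0.23 for members and −0.32 for all genes. For LPS+TM7nox against LPS these were −0.15 and −0.04, and against DMSO −0.38 and −0.33. The share of all members lay between 0.731% and 0.840% in the DMSO libraries, between 0.651% and 0.720% with LPS and between 0.584% and 0.646% with TM7nox added. That of complex I was 0.217% to 0.229% in DMSO, above the 0.171% to 0.189% in LPS, which overlapped the 0.156% to 0.193% with TM7nox. The shares of ATP synthase overlapped between DMSO (0.285% to 0.346%) and LPS (0.262% to 0.288%). With TM7nox added they were 0.229% to 0.251%, below both. Its summed levels were 2100 CPM ± 308, 2319 CPM ± 262 and 2045 CPM ± 136 (SD, n = 4 each).

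**Figure D2:**
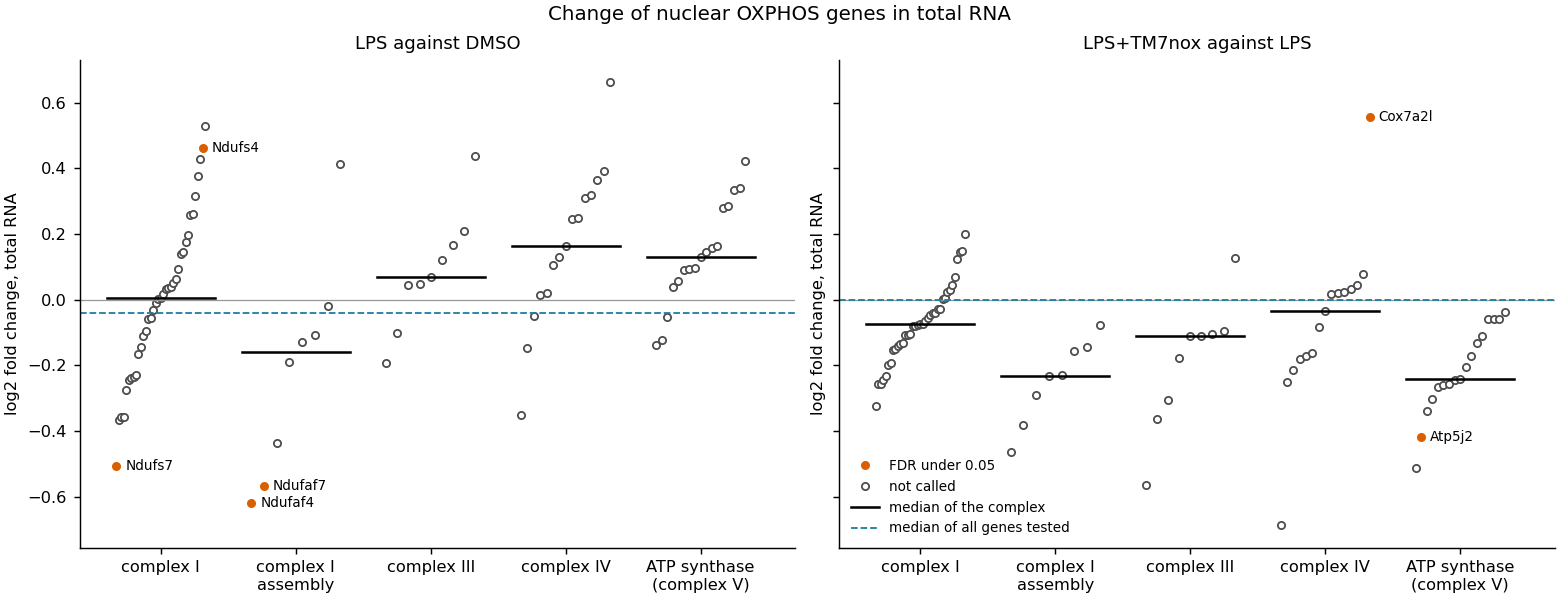
Log2 fold change in total RNA (y axis) of each member tested, by complex (x axis), for LPS against DMSO (left) and LPS+TM7nox against LPS (right). Filled points have an FDR under 0.05, black lines are medians of a complex and the dashed line is the median of all genes tested; 4 points are filled on the left and 2 on the right.

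Addition of TM7nox to LPS was compared next, against the same LPS libraries as above. In total RNA 1 of 86 members rose and 1 fell, against 13.8% of all genes called (7.37% higher and 6.4% lower). The members' median was −0.11 on the log2 scale, and that of all genes −0.00. All 17 ATP synthase genes tested and all 8 assembly factors had values below 0, with medians of −0.24 and −0.23. Of all 12369 genes, 6146 were above 0. With replicates 1 and 2 alone the members' median was −0.06 and 32 of 87 were above 0. With replicates 3 and 4 alone these were −0.19 and 11 of 86. With the replicate block 8 members were lower, against 12.7% of all genes. These were Atp5d (−0.24), Atp5pb (−0.25), Atp5c1 (−0.32), Atp5j2 (−0.41) and Atp5g3 (−0.47) of ATP synthase, Ndufaf4 (−0.29) and Ndufaf8 (−0.46) of the assembly factors, and Uqcrh (−0.54), the hinge protein of complex III.

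Cox7a2l (chr17:83765970-83824759, minus strand), a factor that joins complexes III and IV into supercomplexes, was the member that rose. It stood at 33.4, 35.9, 45.4 and 43.2 CPM in DMSO, at 39.7, 45.3, 50.3 and 44.8 CPM in LPS and at 66.4, 61.3, 67.1 and 69.5 CPM in LPS+TM7nox. The LPS+TM7nox libraries were all above the other 8, while DMSO and LPS overlapped. The log2 fold change against LPS was 0.56 (SE 0.112, FDR 0.00454). Of its 31-base words 55.5% lie elsewhere in the genome, and its exons overlap Eml4 on the other strand. Eml4 fell in the same comparison by 0.98 on the log2 scale (FDR 8.04e-05).

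Atp5j2 (chr5:145120505-145128872, minus strand), which encodes subunit f of the membrane part of ATP synthase, was the member that fell. Its levels were 46.9, 56.5, 55.7 and 52.5 CPM in LPS and 39.8, 37.4, 42.0 and 38.8 CPM in LPS+TM7nox, with no overlap. The log2 fold change was −0.42 (SE 0.131, FDR 0.0484). The call was lost whichever of the 8 libraries was left out, at FDRs of 0.0523 to 0.124, so 0 members were lower in each of those fits.

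LPS+TM7nox against DMSO, which reuses libraries of both comparisons above, had 3 members higher and 9 lower, against 47.3% of all genes called (23.7% higher and 23.6% lower). The members' median was −0.07, and that of all genes −0.01. The higher members were Cox7a2l (0.69, FDR 0.000185), Ndufa1 (0.68, FDR 0.0424) and Ndufs4 (0.39, FDR 0.0226). The lower ones were the assembly factors Ndufaf4 (−0.91, FDR 4.57e-05), Ndufaf7 (−0.80, FDR 0.00301) and Ndufaf6 (−0.67, FDR 0.00584), the complex I subunits Ndufs7 (−0.64, FDR 0.000865), Ndufb10, Ndufv3 and Ndufs1, and the ATP synthase genes Atp5g1 and Atp5j2. Ndufaf6 illustrates the level of such genes: it stood at 8.56, 9.15, 9.73 and 10.4 CPM in DMSO and at 5.60, 7.42, 5.00 and 6.71 CPM in LPS+TM7nox, with no overlap. Without RNA LPS+TM7nox replicate 3 only 1 member was higher, since Ndufs4 then had an FDR of 0.0645 and Ndufa1 of 0.0712. The call of Ndufa1 was also lost without RNA LPS+TM7nox replicate 4 (FDR 0.167) or RNA DMSO replicate 1 or 3 (FDR 0.0898 and 0.122). Without RNA DMSO replicate 1, 15 members were lower. With the block there were 8 higher and 18 lower, against 29.4% and 28.6% of all genes. On library totals alone there were 1 higher and 35 lower, against 15.1% and 36.9%.

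**Figure D3:**
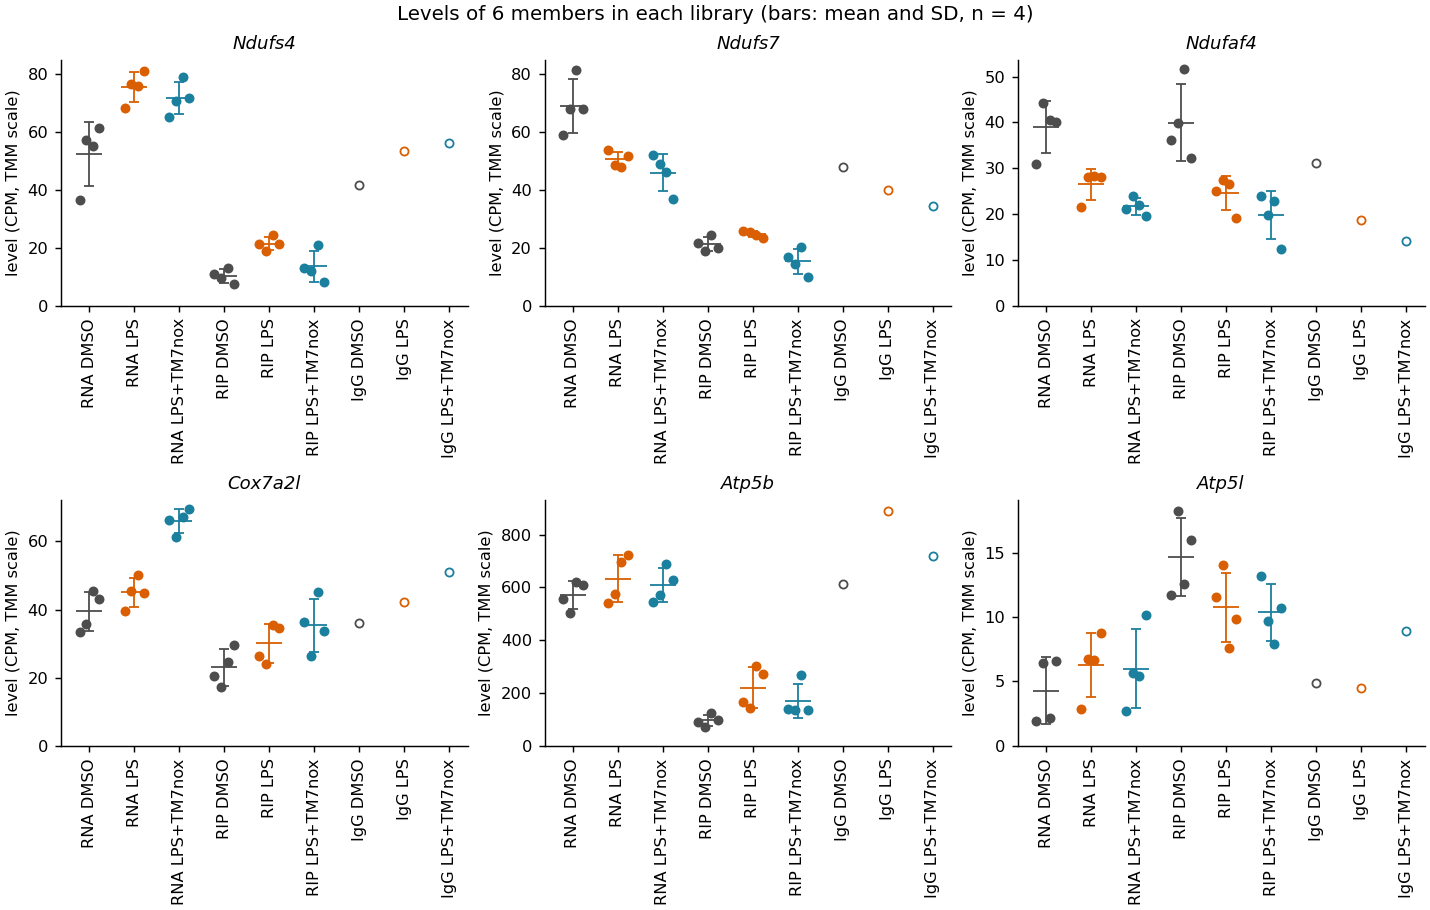
Levels (y axis, CPM on the TMM scale) of 6 members in each library (x axis, by assay and treatment); points are libraries, bars are the mean and SD of 4, and IgG points are open. Cox7a2l in RNA is highest in LPS+TM7nox, Ndufaf4 is as high in RIP as in RNA, and Atp5b in RIP is far below its RNA and IgG levels.

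Recovery with the anti-HuR antibody was measured as RIP over total RNA in 1 fit of the 24 libraries. TMM scaling sets the typical gene near 0, so these ratios carry no absolute scale. In DMSO 81 of 87 members were lower in RIP than in RNA and 2 were higher, against 70.4% of all 14311 genes called (37% higher and 33.4% lower). The members' median was −1.88 on the log2 scale, and that of all genes was 0.04. In LPS 79 were lower and 0 higher, with a median of −1.48, against 63.7% of all genes called (32.9% higher and 30.8% lower) and a median of −0.06. In LPS+TM7nox 80 were lower and 0 higher, with a median of −1.83, against 69.9% of all genes called (35.2% higher and 34.8% lower) and a median of −0.09. On library totals alone the DMSO medians were −2.61 for members and −0.72 for all genes, so the distance between them was −1.88, beside −1.92 with TMM.

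Each complex had this low recovery in DMSO. The medians were −1.84 for complex I (35 lower), −2.14 for complex III (all 9 lower), −1.87 for complex IV (14 of 16 lower), −1.90 for ATP synthase (16 of 17 lower) and −1.18 for the assembly factors (7 of 8 lower). The lowest was Ndufc2, an accessory subunit of complex I, at 71.5, 41.3, 53.7 and 38.7 CPM in RNA and 8.88, 4.52, 8.11 and 5.57 CPM in RIP. No RIP library reached the lowest RNA library, and its log2 ratio was −2.77 (SE 0.230, FDR 8.52e-11). Ndufa5 (−2.75), Atp5md (−2.71) and Ndufc1 (−2.66) were next. Atp5md, a small membrane subunit of ATP synthase, was also the lowest in LPS (−2.36) and in LPS+TM7nox (−2.56), but 64.9% of the 31-base words of its transcript lie elsewhere in the genome too.

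A few members stood apart. Atp5l (chr9:44800118-44832055, minus strand), which encodes subunit g of ATP synthase, had 1.93, 6.45, 2.16 and 6.63 CPM in RNA and 11.8, 18.3, 12.6 and 16.1 CPM in RIP from DMSO. The groups did not overlap, and its log2 ratio was 1.79 (SE 0.404, FDR 0.000349). Of its 31-base words 82.2% lie elsewhere in the genome, and its RNA value in replicate 1 rests on 9 counts. The ratio of Ndufb2 was 1.74 (SE 0.565, FDR 0.00839), at 1.38 CPM in RIP and 0.372 CPM in RNA. Its exons overlap those of Braf, whose own ratio was 2.79. The assembly factor Ndufaf4 (0.14) and Ndufab1 (0.00), the mitochondrial acyl carrier protein that is also a complex I subunit, were not called, nor were the rare Cox4i2 (−1.23) and Cox6a2 (−0.59). Ndufaf4 had 36.1, 39.8, 51.7 and 32.2 CPM in RIP from DMSO, within the range of its RNA but for 1 library above it.

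With 1 library left out, 1 member was called higher in LPS (without RIP LPS replicate 3 or RNA LPS replicate 4) and 1 in LPS+TM7nox (without RIP LPS+TM7nox replicate 2 or 3 or RNA LPS+TM7nox replicate 4). With the block Atp5l was higher in LPS (0.86) and in LPS+TM7nox (0.97), and Ndufb2 in LPS+TM7nox (1.10).

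**Figure D4:**
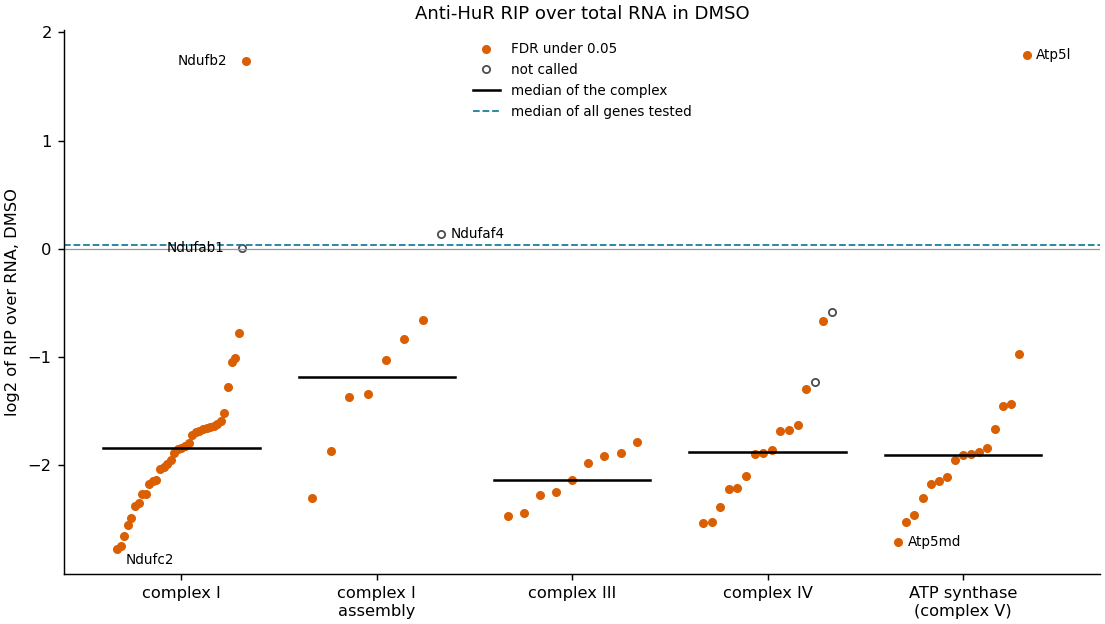
Log2 ratio of anti-HuR RIP over total RNA in DMSO (y axis) of each of 87 members, by complex (x axis). Filled points have an FDR under 0.05, black lines are medians of a complex and the dashed line is the median of all genes; nearly all members lie below 0, with Atp5l and Ndufb2 above it.

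The 3′ untranslated regions (3′ UTRs) of the members were short. Their median was 208 nt (quartiles 108 to 792) over 87 members, against 1318 nt (530 to 2569) over the 11196 coding genes tested. The U share was similar, at a median of 28.5% for 84 members and 29.1% for 10946 coding genes with a 3′ UTR of at least 50 nt. A run of 5 U was found in 40.2% of members and 79.5% of coding genes, and the pentamer AUUUA in 49.4% and 72.2%, counted on the mRNA strand only. Across the 87 members, Spearman's rho between the DMSO ratio and 3′ UTR length was 0.134, and with the number of UUUUU it was 0.179. Across all coding genes these were 0.359 and 0.516. They are descriptions across genes that share the same libraries and depth.

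To show what these regions hold, the 30-base stretch with most U was taken from the 3′ UTR of the 4 members with the highest ratios and the 4 with the lowest, among those with a mean of at least 1 CPM. The window of Ndufc1, the fourth lowest, is not shown, so the windows shown are not set against each other by ratio. Elavl1, no member, is added because its own mRNA had a ratio of 5.00. Capitals mark runs of at least 3 U. Sequences are those of the GENCODE M39 transcripts on GRCm39, 5′ to 3′ on the mRNA strand.
Atp5l (chr9:44824630-44824659, minus strand): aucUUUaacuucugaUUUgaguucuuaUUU
Ndufaf4 (chr4:24902411-24902440, plus strand): ucUUUUUaaugUUUUaaaUUUgUUUUaaau
Ndufab1 (chr7:121686940-121686969, minus strand): gcuugUUUggguaaUUUccucUUUUUUUgu
Ndufaf1 (chr2:119485801-119485830, minus strand): ccUUUgUUUaauguguuaUUUUUUUUUauu
Ndufc2 (chr7:97056920-97056949, plus strand): auaUUUUcugagUUUUaugggaUUUUcugu
Ndufa5 (chr6:24518668-24518697, minus strand): aauuaaaugugcaauuaaaugcucugugau
Atp5md (chr19:47071977-47072006, minus strand): UUUUgaaaugucugaccucaccuguuaagu
Elavl1 (chr8:4339541-4339570, minus strand): UUUUUUUUUUccUUUUcUUUUUUcUUUUUU
The windows shown for members held 11 U (Ndufa5) to 21 U (Ndufaf1), and that of Elavl1 held 26. The 3′ UTRs of the 4 highest members, Atp5l, Ndufaf4, Ndufab1 and Ndufaf1, are 151, 3026, 2944 and 3441 nt long. Those of the 4 lowest, Ndufc2, Ndufa5, Atp5md and Ndufc1, are 147, 61, 105 and 960 nt long. The lengths of both sets overlap, with Atp5l among the short and Ndufc1 longer than it.

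Anti-HuR RIP was also set against the IgG libraries, with treatment as a covariate. Here 78 of 86 members were lower with anti-HuR and 2 were higher, against 68.1% of all 14973 genes called (33.8% higher and 34.2% lower). The members' median was −1.39, and that of all genes −0.00. Atp5b (chr10:127919132-127926261, plus strand) stood at 612, 890 and 721 CPM in IgG from DMSO, LPS and LPS+TM7nox and at 89.8, 72.3, 125 and 97.5 CPM in RIP from DMSO. Its highest RIP level in any treatment was 301 CPM, and its log2 fold change against IgG was −2.28 (SE 0.203, FDR 7.95e-09). The core proteins of complex III, Uqcrc1 (−2.26) and Uqcrc2 (−2.37), and the complex I subunit Ndufa12 (−2.35) were as low. Atp5l was higher by 0.99 (SE 0.267, FDR 0.00281), and with the replicate block by 0.56 and no longer called (FDR 0.0631). Ndufaf4 was higher by 0.41 (SE 0.166, FDR 0.0355), a call lost without the IgG library of DMSO, LPS or LPS+TM7nox (FDR 0.0766, 0.0755 and 0.164), so that 1 member was higher in each of those fits. With the block Ndufaf4 was called, at 0.56 (FDR 0.00272). On library totals alone 0 were higher and 83 lower, against 19.4% and 55.8% of all genes.

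Within anti-HuR RIP, LPS was compared with DMSO. Of 85 members 38 were higher and 3 lower, against 44.7% of all 13614 genes called (23.5% higher and 21.2% lower). The members' median log2 fold change was 0.57 with TMM, where that of all genes was −0.00, and −0.05 on library totals alone, where that of all genes was −0.63. On library totals 0 members were called higher and 7 lower, against 9.54% and 47.2% of all genes. The distance of the members from the typical gene was 0.58 under both scalings, and 80 of 85 members were above the median of all genes on library totals. The direction of these values is therefore relative to the typical gene. By complex 6 of 9 complex III genes, 9 of 14 complex IV genes, 11 of 17 ATP synthase genes, 12 of 37 complex I genes and 0 of 8 assembly factors were higher, with medians of 0.69, 0.64, 0.68, 0.54 and 0.21. With the replicate block 56 members were higher and 4 lower, against 30.7% and 28.6% of all genes. Higher were then 8 of 9 complex III genes, 11 of 14 of complex IV, 13 of 17 of ATP synthase, 24 of 37 of complex I and 0 of 8 assembly factors. The count of 38 was 25 without RIP DMSO replicate 1, 19 without RIP DMSO replicate 2, 25 without RIP LPS replicate 3 and 16 without RIP LPS replicate 4. It was 5 of 85 with replicates 1 and 2 alone, against 12.1% of all genes, and 25 of 84 with replicates 3 and 4 alone, against 20.4%. The share of members was thus below that of all genes in the first pair of replicates and above it in the second.

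Atp5b had the largest increase by the rule for named genes. It stood at 89.8, 72.3, 125 and 97.5 CPM in RIP from DMSO, at 166, 143, 301 and 272 CPM in LPS and at 140, 134, 269 and 136 CPM in LPS+TM7nox. All LPS libraries lay above all DMSO libraries. Its log2 fold change by LPS was 1.17 (SE 0.262, FDR 0.00192), while in total RNA it was 0.09 and not called. Ndufs4 had 10.8, 9.51, 13.1 and 7.54 CPM in DMSO and 21.3, 18.7, 24.2 and 21.4 CPM in LPS, again with no overlap, and the difference was 1.04 on the log2 scale (SE 0.212, FDR 0.000927). Atp5mpl, a small subunit of ATP synthase, was higher by 0.98 (FDR 0.00685) and Ndufb1-ps, listed with a coding transcript under a pseudogene's name, by 0.89 (FDR 0.00566). On library totals alone these 4 had log2 fold changes of 0.54, 0.41, 0.35 and 0.27 and were not called. Other members that were higher included the electron carriers Cyc1 (0.81), Uqcrfs1 (0.69) and Ndufs8 (0.59), the core proteins Uqcrc1 (0.80) and Uqcrc2 (0.80) of complex III, and Atp5a1 (0.82).

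The members lower in RIP after LPS were among those that stood apart above. Ndufaf4 had 36.1, 39.8, 51.7 and 32.2 CPM in DMSO and 25.03, 27.4, 26.6 and 19.1 CPM in LPS, with no overlap, and fell by 0.73 on the log2 scale (SE 0.184, FDR 0.00439). Ndufab1 had 13.2, 17.3, 16.1 and 13.6 CPM in DMSO and 10.8, 10.8, 12.04 and 9.15 CPM in LPS, with a fall of 0.53 (SE 0.170, FDR 0.0188). Ndufb2 was lower by 1.27 (FDR 0.0352), from 20 to 54 counts per library to 3 to 17. That call was lost without RIP DMSO replicate 2 or 3 or RIP LPS replicate 1 or 2 (FDR 0.0797, 0.0627, 0.0754 and 0.0559).

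The change of RIP over RNA by LPS tests whether RIP moved beyond RNA. With edgeR it called 0 of 87 members, against 0.0419% of all genes (0.014% higher and 0.028% lower). An unadjusted p under 0.05 was found for 16 members, beside 1041 of all 14311 genes. DESeq2 called 1 member higher, against 0.238% of all genes higher and 0.224% lower. With edgeR 77 of the 87 were above 0 and the median was 0.39, beside 7404 of all genes and a median of 0.02. With the replicate block Atp5b (0.92, FDR 0.0350) and Cyc1, cytochrome c1 of complex III (0.86, FDR 0.0475), were higher, against 0.119% of all genes. For single members other than these, the larger RIP change was thus not separated from the RNA change. The same test for TM7nox called 0 members with edgeR, against 0.00699% of all genes (0.00699% higher and 0% lower). An unadjusted p under 0.05 was found for 7 members, beside 771 of all 14311 genes. DESeq2 called 0 members, against 0.014% of all genes higher and 0.00699% lower. For TM7nox with edgeR 8 of 87 were above 0, with a median of −0.31, beside 7197 of all genes and a median of 0.00.

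**Figure D5:**
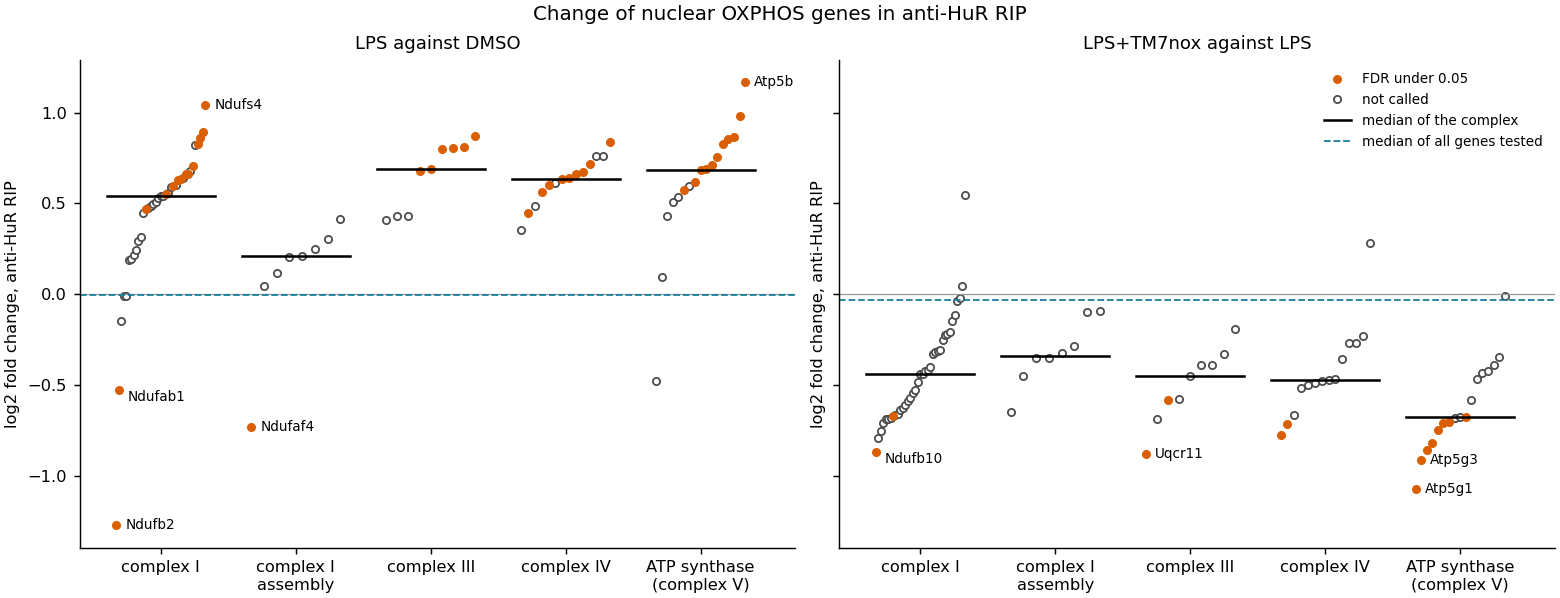
Log2 fold change in anti-HuR RIP (y axis) of each of 85 members, by complex (x axis), for LPS against DMSO (left) and LPS+TM7nox against LPS (right). Filled points have an FDR under 0.05, black lines are medians of a complex and the dashed line is the median of all genes; on the left 38 filled points lie above 0 with TMM scaling (0 on library totals alone), and on the right 14 lie below it.

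TM7nox with LPS was compared with LPS alone in RIP, with the LPS libraries shared with the comparison above. Of 85 members 14 were lower and 0 higher, against 16.2% of all genes called (8.64% higher and 7.61% lower). The members' median was −0.47 with TMM and −0.47 on library totals alone, and that of all genes was −0.03 and −0.04. ATP synthase had 8 of the 14: Atp5c1, Atp5d, Atp5g1, Atp5g3, Atp5j, Atp5j2, Atp5mpl and Atp5pb, with a median over its 17 genes of −0.68. The others were Ndufb10 and Ndufs7 of complex I, Uqcr10 and Uqcr11 of complex III, and Cox7c and Cox8a of complex IV. With the block 43 members were lower, against 17.1% of all genes. The count of 14 was 26 without RIP LPS replicate 2, 8 without RIP LPS+TM7nox replicate 2, and 9 without RIP LPS replicate 4 or without RIP LPS+TM7nox replicate 4. It was 1 of 85 with replicates 1 and 2 alone, against 2.29% of all genes, and 6 of 84 with replicates 3 and 4 alone, against 3.51%. In the first pair of replicates the members' share was thus not above that of all genes.

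The largest decrease was that of Atp5g1, which encodes the c-ring subunit that turns as protons pass. It stood at 24.9, 19.0, 21.8 and 29.6 CPM in RIP from LPS and at 13.3, 9.65, 15.0 and 6.68 CPM in LPS+TM7nox, with no overlap. The log2 fold change was −1.07 (SE 0.225, FDR 0.00436), and in total RNA it was −0.30 and not called. Atp5g3, whose mature protein is the same c subunit, had 37.5, 29.0, 38.9 and 52.0 CPM in LPS and 20.6, 21.0, 25.3 and 15.0 CPM in LPS+TM7nox, with a difference of −0.92 on the log2 scale (SE 0.193, FDR 0.00444). The third gene of the c subunit, Atp5g2, had −0.68 and was not called, and with the block −0.62 and was called (FDR 0.0125). All of its 31-base words lie elsewhere in the genome, so its reads are uncertain. Ndufb10 had 20.1, 13.8, 18.7 and 21.3 CPM in LPS and 12.8, 8.31, 11.01 and 7.43 CPM in LPS+TM7nox, with a fall of 0.87 (SE 0.185, FDR 0.00473). Uqcr11 had 16.1, 12.95, 15.8 and 24.98 CPM in LPS and 10.7, 8.18, 10.2 and 7.81 CPM in LPS+TM7nox, with a fall of 0.88 (SE 0.225, FDR 0.0143), and its call was lost without RIP LPS replicate 4 (FDR 0.0544). The libraries of both genes did not overlap between treatments.

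Partners of the members outside the symbol rule were read from lists of the pathway, whose counts stand beside the 42% of all genes called by LPS and the 13.8% called with TM7nox in RNA. Cytochrome c, Cycs, which carries electrons from complex III to IV, rose in RNA by LPS, from 98.6 CPM ± 20.4 to 152 CPM ± 13.3 (SD, n = 4 each; log2 fold change 0.56, FDR 0.00283), and in RIP by 0.94 (FDR 0.000597). On library totals alone these were 0.28 (FDR 0.0567) and 0.33 (FDR 0.216), neither called. With TM7nox added to LPS, Cycs fell in RIP by 0.69 (FDR 0.0165) and had −0.31 in RNA (FDR 0.143, and 0.0312 with the block). Of 7 complex II genes tested, 1 fell by LPS and again with TM7nox: Sdhd, a membrane anchor, at 65.5 CPM ± 1.89, 51.7 CPM ± 4.07 and 41.3 CPM ± 2.72 (SD, n = 4 each). Of 8 further complex I assembly factors, 3 fell by LPS (Ecsit −0.89, Tmem126b −0.78 and Tmem186 −0.92) and Foxred1 rose (0.47), and 0 were called with TM7nox. Among 24 assembly factors of complexes III, IV and V, 3 rose and 5 fell by LPS in RNA, and 0 were called with TM7nox. Of 13 coenzyme Q synthesis genes tested, 2 rose and 3 fell by LPS in RNA. Of 12 regulators tested, 1 was lower in RNA with TM7nox added to LPS, and 4 fell by LPS. The coactivator Ppargc1b fell from 20.2 CPM ± 2.78 to 2.79 CPM ± 1.29 (SD, n = 4 each; log2 fold change −2.91), and Polrmt, Tfb2m and Pprc1 were the others. AA467197, a paralogue of the complex IV subunit Ndufa4, had 0 counts in the 4 RNA libraries of DMSO, 219 in LPS and 67 in LPS+TM7nox. Against a floor of 3 counts over the DMSO group it was at least 67.7-fold higher in LPS and at least 23.4-fold higher in LPS+TM7nox, while Ndufa4 itself was not called (0.16 and 0.13). Of the 7 mitochondrially encoded subunits tested, mt-Cytb (−0.70) and mt-Nd4 (−0.56) fell by LPS in RNA. In RIP 4 of these 7 were lower by LPS, with a median of −0.71 beside 0.57 for the members, against 21.2% of all genes lower. On library totals alone 7 of 7 were lower, with a median of −1.35 beside −0.05 for the members, against 47.2% of all genes lower. With TM7nox added to LPS all 7 were above 0 in RIP with TMM, and 2 were called higher (mt-Nd2 and mt-Nd4), against 8.64% of all genes higher. Their median was 0.78 beside −0.47 for the members. On library totals alone 2 were also called higher, with a median of 0.81, against 7.97% of all genes. With the replicate block 7 of 7 were called higher with TM7nox, against 16.6% of all genes, and 6 of 7 lower by LPS, against 28.6%.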

How the data were processed

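Per the labels' protocols, RAW264.7 cells (about 30 M per sample) were lysed with NP-40, RNA was taken with TRIzol, and SMART-Seq Stranded libraries were made. The authors deposited raw counts, whole reads per gene and library with no normalization. The submitters' processing notes name FastQC 0.11.9, STAR, HTSeq, DESeq2 and GRCm39; no source used here gives the annotation release or the strand setting of counting. Reads carry no stated molecular identifiers, so the floors cover counting error only.

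Tests ran on the counts of all genes in edgeR 4.0.16 under R 4.3.3 (quasi-likelihood, two-sided, TMM, filterByExpr with a minimum count of 10, Benjamini-Hochberg adjustment over all genes tested, FDR under 0.05). The 12 RNA, the 12 RIP, those 24, and the 12 RIP with 3 IgG libraries were fitted separately. CPM values are on 1 TMM scale over 27 libraries. Alternatives were RLE and library-total scaling (the latter chosen after seeing the data), DESeq2 1.42.0, no filter, no mitochondrially encoded genes, a replicate block, subsets of replicates, and leaving out each library. Same-numbered libraries deviated together (r of 0.143 to 0.506 over 8 comparisons). The labels state no shared batch, so this pairing was read from the data. Only the replicate block used it. The main calls and the figures ignore the pairing. Coordinates and sequences are from GENCODE M39 on GRCm39, which held all 93 members. The scripts were tested on simulated data.

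Named genes were those of a fixed list by role, and in each comparison up to 4 called members per direction, those that changed most and had a mean of at least 1 CPM, or all called members where 5 or fewer were called in a direction. Members and lists were chosen with earlier results of these data known. Some items are not reported here.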

Additional observations from a re-analysis of the deposited data

Results flagged for a closer look

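In 4 of 84 groups of 4 libraries, 1 library lay far from the others, with a gap to its neighbour over the group's range above Dixon's critical value. Chance gives about 1 in 20 such groups. The ratio was 0.947 for Ndufaf4 in RNA from LPS, where replicate 1 stood at 21.5 CPM and the others at 28.03 to 28.4 CPM. It was 0.905 for Atp5j2 in RNA from DMSO, where replicate 1, the shallowest library, stood at 33.8 CPM and the others at 53.6 to 55.6 CPM. It was 0.902 for Atp5j2 in RIP from DMSO, where replicate 1 stood at 15.1 CPM and the others at 11.3 to 11.7 CPM. It was 0.850 for the share of counts of the complex I subunits in RIP from DMSO, where replicate 2 was the library apart.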

How the results depend on the processing

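For the 24 called changes named in the RNA and RIP treatment comparisons, 222 results of other settings kept direction and call, 42 lost the call, and 0 turned direction. Named members of RIP over RNA and of anti-HuR against IgG are not in this tally. The losses came from several settings, among them replicates 1 and 2 alone, library totals alone and leaving out 1 library. The cause was not tested. The counts of members below are those that moved, with the share of all genes called the same way in brackets. With edgeR's RLE size factors, LPS against DMSO in RNA had 3 members higher (21.9%), and RIP over RNA had 1 higher in LPS (36.2%) and 1 in LPS+TM7nox (38.6%). Scaling by library totals alone, a choice made after seeing the data, gave 0 higher (13.2%) and 15 lower (34.4%) for LPS in RNA, 1 higher (15.1%) and 35 lower (36.9%) for LPS+TM7nox against DMSO, 0 higher (9.54%) and 7 lower (47.2%) for LPS in RIP, 1 higher (26.4%) for RIP over RNA in DMSO and 0 higher (19.4%) against IgG. Summed RIP as a percentage of summed RNA was 24.9, 35.7 and 27.3 in DMSO, LPS and LPS+TM7nox with TMM, and 15.8, 18.3 and 14.6 on plain totals. DESeq2 gave 6 higher (23.2%) for LPS in RNA, 3 lower (9.44%) for LPS+TM7nox against LPS in RNA and 22 lower (10.1%) in RIP, 1 (36.9%) and 2 higher (39.1%) for RIP over RNA in LPS and LPS+TM7nox, and 1 higher (0.238%) for the change of RIP over RNA by LPS. Without the low-count filter there were 6 higher (8.96%) for LPS and 2 lower (2.91%) for LPS+TM7nox against LPS in RNA, and 1 higher for RIP over RNA in LPS (13.02%) and in LPS+TM7nox (13.4%). Without mitochondrially encoded genes there were 3 higher (21.96%) for LPS in RNA and 1 higher (34.5%) for RIP over RNA in LPS+TM7nox. Fitting the compared groups alone gave 3 higher (21.1%) for LPS and 2 lower (6.92%) for LPS+TM7nox against LPS in RNA.

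The replicate block, which uses the pairing of numbers, gave 12 higher (25.2%) and 6 lower (27.2%) for LPS in RNA, 8 lower (12.7%) for LPS+TM7nox against LPS, 8 higher (29.4%) and 18 lower (28.6%) for LPS+TM7nox against DMSO, 43 lower (17.1%) for LPS+TM7nox against LPS in RIP, 1 (34.9%) and 2 higher (36.9%) for RIP over RNA in LPS and LPS+TM7nox, 2 higher (0.119%) for the change of RIP over RNA by LPS and 1 higher (31.5%) against IgG. It moved the other counts by less than 1.5 times.

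Replicates 1 and 2 alone, which hold the shallowest library, gave 0 higher (8.41%) and 0 lower (4.97%) for LPS in RNA, 0 (0.786%) and 0 (0.561%) for LPS+TM7nox against LPS, 1 (10.5%) and 0 (7.48%) for LPS+TM7nox against DMSO, 5 (12.1%) and 1 (11.9%) for LPS in RIP, 1 lower (2.29%) for LPS+TM7nox in RIP, and 1 higher for RIP over RNA in DMSO (27.2%) and in LPS+TM7nox (28.2%). Replicates 3 and 4 alone gave 15 higher (29.3%) and 5 lower (29.3%) for LPS in RNA, 13 lower (13.5%) for LPS+TM7nox against LPS, 7 higher (33.1%) and 20 lower (30.1%) for LPS+TM7nox against DMSO, 25 higher (20.4%) and 1 lower (20.4%) for LPS in RIP and 6 lower (3.51%) for LPS+TM7nox in RIP.

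Leaving out 1 library at a time gave these ranges. In RNA, LPS had 1 to 3 higher and 2 to 5 lower, LPS+TM7nox against LPS had 0 to 0 lower, and LPS+TM7nox against DMSO had 1 to 4 higher and 6 to 15 lower. In RIP, LPS had 16 to 48 higher and LPS+TM7nox had 8 to 26 lower. RIP over RNA had 0 to 1 higher in LPS and in LPS+TM7nox, and the comparison with IgG had 1 to 3 higher. The shares of all genes called are not given for these fits, here or above. The counts therefore do not show whether the members moved apart from all genes.

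Members with fewer than 10 counts in a library (among them Ndufb2 in RNA and RIP, and Atp5l in RNA) and the isoforms at or near 0 are limited by depth. Calls that rest on RNA DMSO replicate 1 carry its lower depth.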
